A study of Equus caballus with 25 samples.

Results

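TREM2 and SPP1 are 2 of the 7238 transcripts on a custom equine array, and they were followed across every horse of a study of equine asthma. TREM2 was read by the probe of transcript ENSECAT00000016008, and SPP1 by the probe of ENSECAT00000018317, the identifiers that the study's gene tables pair with these symbols. Those tables hold transcripts that the study had found changed in these horses. RNA came from the cells of bronchoalveolar lavage (BAL), a saline wash of the lower airways taken by endoscopy under sedation, and each horse gave 1 array. The groups were 7 clinically healthy horses (CTRL, diagnosis Control), 10 horses with mild equine asthma (MEA, labelled IAD for inflammatory airway disease) and 8 horses with severe equine asthma (SEA, labelled RAO for recurrent airway obstruction). The labels name no treatment, earlier medication is not given in the sources used here, and diseased horses were sampled when they presented as clinical cases. MEA horses were admitted with neutrophilic airway inflammation and without mast cell or eosinophilic inflammation. Both sexes were about equally represented in each group. The CTRL horses were all standardbreds and the other groups mostly saddle horses, so breed cannot be told apart from diagnosis in the comparisons with CTRL. CTRL and MEA horses were of like age and SEA horses older, so age cannot be told apart from diagnosis in the comparisons with SEA.

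TREM2, the triggering receptor expressed on myeloid cells 2, is a surface receptor of macrophages that binds lipids and lipoproteins and signals through the adaptor TYROBP (DAP12) to the kinase SYK. SPP1, also called osteopontin, is a secreted phosphoprotein of activated macrophages and other cells that binds integrins and CD44 and is cut by metalloproteinases and thrombin. In human lung disease both genes are used as markers of recruited, lipid-handling macrophages, although they do not always mark the same cells. In healthy horses most BAL cells are alveolar macrophages, whereas neutrophils dominate the lavage in SEA.

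Each gene was read by 1 oligonucleotide probe, which is shown because every value below rests on it. For TREM2 the whole probe is given, and for SPP1 its first 30 of 60 bases.
TREM2: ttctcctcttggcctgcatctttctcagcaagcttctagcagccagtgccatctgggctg
SPP1: gtttggcctacattctttccatataagaaa
The TREM2 probe had a GC content of 55% and the SPP1 probe of 35%, at the upper and lower 5% ends of the array, whose median was 45%. Neither probe was shared with another transcript. Their places within the transcripts were not derived. In the reference gene order of the thoroughbred telomere-to-telomere assembly, TREM2 lies on chromosome 20 in the TREM gene cluster, between TREML1 and TREML2 and near TREM1. SPP1 lies on chromosome 3 between PKD2 and MEPE, in a cluster with IBSP, DMP1 and DSPP, genes of bone and tooth matrix proteins.

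Each probe was printed on 2 spots per array, and all 50 spots of each gene were well above background, with none saturated. On the scanner's linear scale, TREM2 spots ranged from 52.4 to 4620 and SPP1 spots from 69.1 to 110000. The median difference between the paired spots was 0.13 for TREM2 and 0.17 for SPP1 on the log2 scale, against 0.16 over all 4930 tested transcripts. Over the 25 arrays, 58.2 to 90.8% of spots were well above background. All further values are log2 intensities after cyclic loess normalization of the 25 arrays. Levels of one probe cannot be compared with those of another, because probes bind with different efficiency.

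One SEA array stood apart in its cell markers. The mean level of 10 transcripts of neutrophil markers was 8.29 in SEA horse 1, against 10.95 to 12.88 in the other 7 SEA horses and 8.02 to 10.85 in CTRL. The same horse had the lowest mean of the epithelial markers, 4.32. Its cytology had counted mostly neutrophils. The values without this horse are therefore given beside the results for SEA.

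TREM2 was overexpressed in SEA-affected horses compared with CTRL. In CTRL horses 1 to 7, its levels were 7.92, 7.90, 6.04, 6.19, 8.85, 7.98 and 8.09. In SEA horses 1 to 8, they were 10.23, 9.05, 10.09, 8.60, 7.38, 8.18, 8.22 and 11.25. The groups overlapped. CTRL horses 3 and 4 lay far below the other 5, while 4 of 8 SEA horses lay above the highest CTRL horse and 7 of 8 above the CTRL mean. The CTRL mean was 7.57 ± 1.05 (SD, n = 7), and the SEA mean was 9.12 ± 1.29 (SD, n = 8). The difference was 1.56 on the log2 scale (SE 0.56, 95% confidence interval 0.37 to 2.74), a 2.94-fold higher intensity, and limma gave an adjusted p of 0.0496. Overexpressed or underexpressed transcripts were those with an adjusted p under 0.1 and at least a 1.5-fold change, referred to as called, and TREM2 was one of them. Of the 4930 transcripts tested, 32.7% were called between SEA and CTRL, 16% as higher and 16.7% as lower in SEA. TREM2 ranked at place 180 of the 791 higher ones by fold change. A two-sided exact permutation test on TREM2 alone gave p = 0.0274, or 0.0547 adjusted over the 6 tests of both genes. Both genes were known as changed in these same horses, and the adjustment over 6 tests does not cover that choice. The p values of either gene, here and below, are thus no independent evidence of a difference. The call was lost without CTRL horse 3 (1.30, adjusted p = 0.1002) and without CTRL horse 4 (1.33, adjusted p = 0.109), the horses with the lowest TREM2. Without SEA horse 1 it stayed called (1.40, adjusted p = 0.0746).

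SPP1 was overexpressed in SEA as well. CTRL horses 1 to 7 had SPP1 levels of 9.11, 12.58, 10.41, 10.01, 9.35, 10.69 and 13.39. SEA horses 1 to 8 had levels of 10.87, 16.20, 14.27, 13.80, 14.35, 15.78, 12.62 and 16.09. SEA horses 1 and 7 lay within the CTRL range, and the other 6 of 8 lay above the highest CTRL horse. All 8 lay above the CTRL mean. The mean was 10.79 ± 1.61 (SD, n = 7) in CTRL and 14.25 ± 1.84 (SD, n = 8) in SEA. The difference of 3.46 (SE 0.81, confidence interval 1.73 to 5.18) corresponded to a 10.99-fold higher intensity, with a limma adjusted p of 0.0123. SPP1 ranked at place 8 of the 791 transcripts called higher in SEA. The exact permutation test gave p = 0.00342, or 0.0125 adjusted over the 6 tests. Without SEA horse 1 the difference was 3.94 (adjusted p = 0.00272). Because the lavage is a mixture, more cells of a type and more RNA per cell cannot be told apart for either gene.

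In MEA neither gene was called against CTRL. There 9.78% of the tested transcripts were called, 3.25% as higher and 6.53% as lower in MEA. TREM2 levels in MEA horses 1 to 10 were 8.10, 8.76, 7.36, 7.85, 8.77, 8.14, 6.84, 9.35, 9.22 and 7.98, with a mean of 8.24 ± 0.80 (SD, n = 10). Horses 8 and 9 lay above the highest CTRL horse, and the other 8 lay within the CTRL range. TREM2 differed by 0.67 from CTRL (SE 0.41, confidence interval -0.20 to 1.54, limma adjusted p = 0.342). The interval reaches up to nearly the difference measured in SEA, so a rise of that size was not shown to be absent.

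SPP1 in MEA fell into a broad lower range and a pair of high horses. The levels in MEA horses 1 to 10 were 11.28, 9.17, 14.33, 10.78, 14.56, 10.09, 10.21, 7.31, 10.17 and 9.75. Horses 3 and 5 lay above the highest CTRL horse and within the range of SEA, while horse 8 had the lowest SPP1 of all 25 horses. The mean was 10.77 ± 2.21 (SD, n = 10), and the difference from CTRL was -0.03 (SE 0.88, confidence interval -1.87 to 1.82, limma adjusted p = 0.990). SPP1 was among the most variable transcripts within groups, with SDs in CTRL, MEA and SEA of 1.61, 2.21 and 1.84, against medians over all tested transcripts of 0.48, 0.58 and 0.56. For TREM2 the SDs were 1.05, 0.80 and 1.29.

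**Figure D1:**
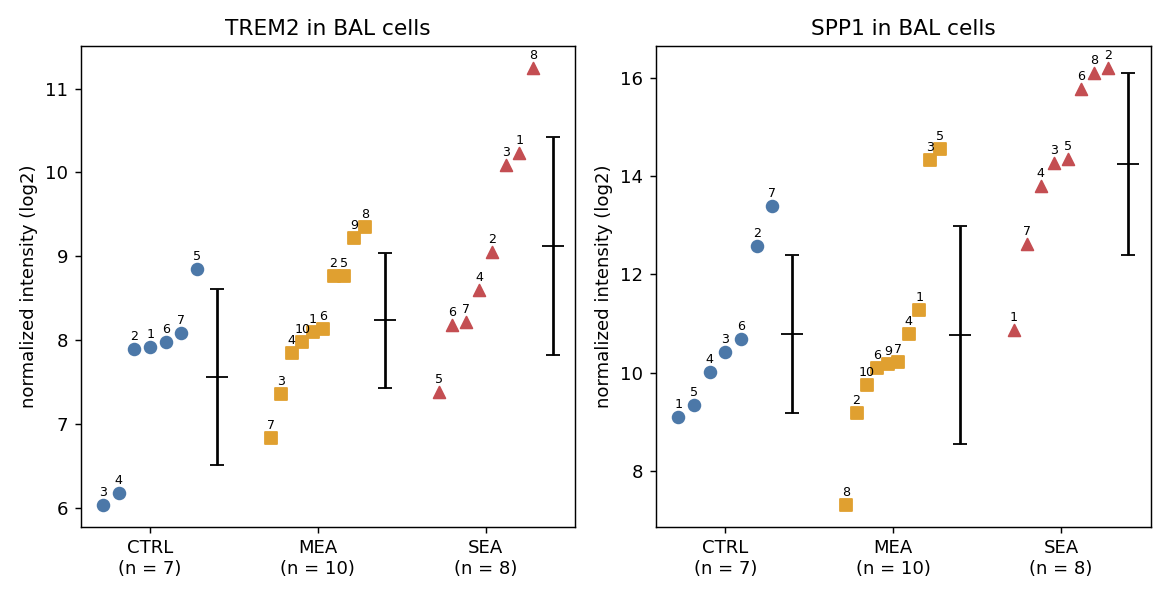
Normalized log2 intensity of TREM2 (left) and SPP1 (right) in each horse of CTRL (n = 7), MEA (n = 10) and SEA (n = 8). Points are horses in ascending order with their numbers, and the bars beside them give the mean and SD. In SEA, 6 horses lie above every CTRL horse for SPP1 and 4 for TREM2, and MEA horses 3 and 5 lie at the SEA level of SPP1.

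Between the diseases, SPP1 was called higher in SEA than in MEA. The difference was 3.48 (SE 0.89, confidence interval 1.62 to 5.35), an 11.2-fold higher intensity with a limma adjusted p of 0.0843. It was place 2 by fold change among the 71 transcripts called higher in SEA, which were 1.44% of those tested (0.791% were called lower, and 2.23% in either direction). In SEA 3 of 8 horses lay above the highest MEA horse, and all 8 lay above the MEA mean. The exact permutation test gave p = 0.00416, or 0.0125 adjusted over the 6 tests. The call did not hold with the slide as a block (3.06, adjusted p = 0.270), and it was lost in 13 of 18 fits that left out 1 horse, whose differences ran from 3.10 to 3.97 and adjusted p values from 0.0200 to 0.183. Without SEA horse 1 it was kept (3.97, adjusted p = 0.0321). TREM2 differed by 0.89 between SEA and MEA (SE 0.46, confidence interval -0.08 to 1.85, limma adjusted p = 0.273) and was not called. By their means the groups were ordered CTRL, MEA and SEA for TREM2, with neighbours in that order not called apart. For SPP1, the MEA and CTRL means lay close together and SEA was called above both. The comparisons with CTRL share the same 7 control horses.

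The arrays lay on 4 slides, each with all 3 groups but with 1 to 5 arrays of a group. Within slides 1 to 4, TREM2 was higher in SEA than in CTRL by 2.32, 1.17, 1.47 and 3.16. SPP1 was higher by 0.03, 4.46, 4.32 and 2.70. On slide 1, SEA horse 1 was the lone SEA array. Within the same slides, TREM2 differed between MEA and CTRL by 0.52, 0.79, 1.13 and 0.06, and SPP1 by -0.61, 2.99, -0.46 and -3.03. The signs of SPP1 in MEA thus changed from slide to slide, with MEA horse 5 on slide 2 and MEA horse 3 on slide 4. Between SEA and MEA, SPP1 differed by 0.65, 1.47, 4.78 and 5.73, and TREM2 by 1.80, 0.38, 0.34 and 3.10.

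**Figure D2:**
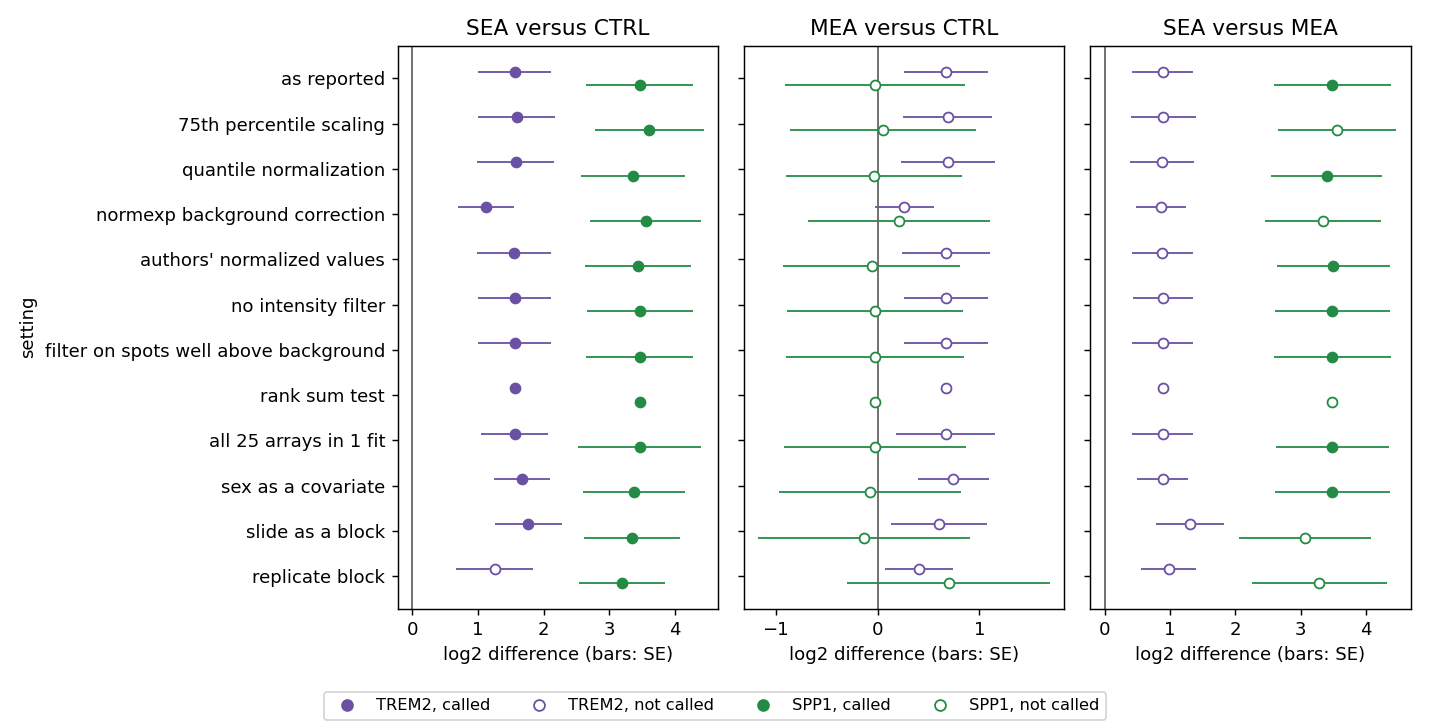
Differences in log2 intensity (x axis) of TREM2 and SPP1 in the 3 comparisons, under the reported setting and 11 others (y axis). Bars are the SE, which the rank sum test does not give, and filled points were called. The replicate block uses only horses whose number occurs in both groups compared. SPP1 between SEA and CTRL is called in every setting shown, TREM2 in all but the replicate block, and SPP1 between SEA and MEA in 6 of the 11 others.

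TREM2 had a lower mean in males than in females in each group, a pattern noticed after the values were seen. Female and male means were 8.16 ± 0.46 (SD, n = 4) and 6.77 ± 1.14 (SD, n = 3) in CTRL, 8.63 ± 0.69 (n = 5) and 7.84 ± 0.75 (n = 5) in MEA, and 9.95 ± 1.26 (n = 4) and 8.30 ± 0.71 (n = 4) in SEA. With the group in the fit, TREM2 was lower in males by 1.23 (SE 0.32), but no transcript passed the threshold between the sexes. For TREM2, limma gave an unadjusted p of 0.000723 and an adjusted p of 0.714, and 0 of 4930 transcripts were called while 311 had an unadjusted p under 0.05. SPP1 was higher in males by 0.94 (SE 0.72, limma adjusted p = 0.737). With sex as a covariate, TREM2 was 1.67 higher in SEA than in CTRL (adjusted p = 0.0164).

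The next comparison asked whether both genes were high in the same horses. Of the 8 SEA horses, 3 lay above every CTRL horse for both genes, namely horses 2, 3 and 8. Horse 1 did so for TREM2 alone, horses 4, 5 and 6 for SPP1 alone, and horse 7 for neither. Of the 10 MEA horses, none lay above CTRL for both. Horses 8 and 9 did so for TREM2, horses 3 and 5 for SPP1, and the other 6 for neither. MEA horse 8 had the highest TREM2 and the lowest SPP1 of its group.

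Within groups, no test found a relation between the levels of both genes. For CTRL, MEA and SEA, Pearson's r was 0.11, -0.34 and 0.01, and Spearman's rho was 0.04, -0.39 and 0.00. Exact permutation tests gave p = 0.840 for r and 0.963 for rho in CTRL (n = 7), and 0.982 and 1.0 in SEA (n = 8). The permutation tests in MEA (n = 10) gave 0.346 and 0.264. Adjusted over the 15 within-group correlations of this family, the p values of r were 0.900 in CTRL, 0.693 in MEA and 0.982 in SEA. Without the 2 horses farthest from the median of SPP1, r was -0.48, -0.57 and 0.46. In SEA without horse 1, r was 0.42. With the group means subtracted, r over the 25 horses was -0.09, with a permutation p of 0.670 when horses were permuted within groups. The share of spots well above background, a measure of array quality, had r of -0.71 with TREM2 in SEA (exact permutation p = 0.0513, 0.308 adjusted over 6 such correlations), and its part in the levels was not tested. With so few horses per group, a moderate relation might not be detected.

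**Figure D3:**
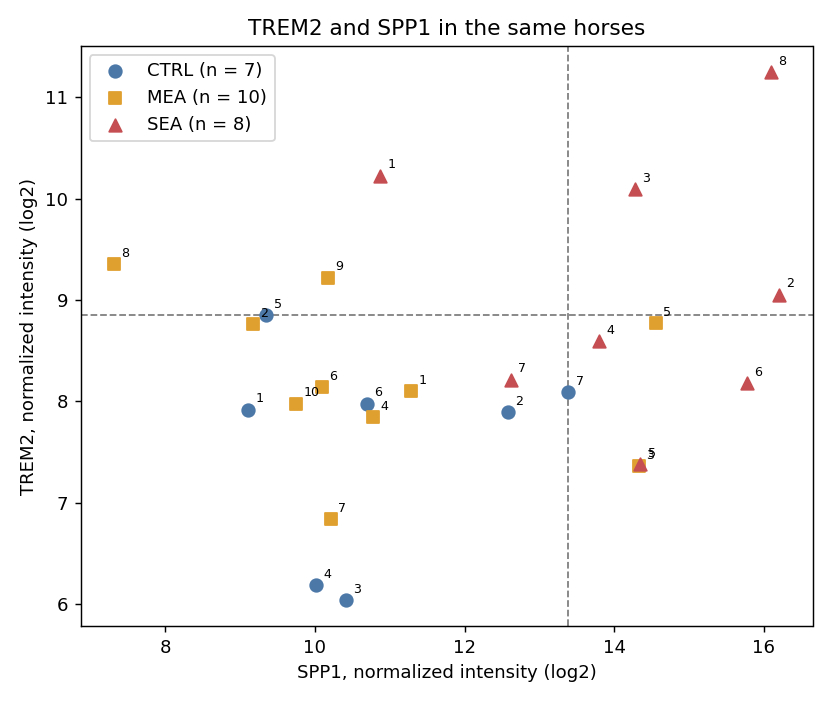
Log2 intensity of TREM2 (y axis) against SPP1 (x axis) in 25 horses, numbered within CTRL, MEA and SEA. Dashed lines mark the highest CTRL horse for each gene. In SEA 3 horses lie beyond both lines, and in MEA no horse does.

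Cytology gave the percentages of macrophages and neutrophils among the inflammatory cells counted in the lavage of each horse, with epithelial cells counted apart. The groups did not overlap in either percentage, so no relation was computed across groups. Macrophages made up the lowest percentages in SEA, the group in which both macrophage state markers were highest. Within groups, TREM2 and the neutrophil percentage had r = 0.66 in CTRL, 0.22 in MEA and 0.48 in SEA, with rho of 0.62, 0.32 and 0.43. For TREM2 and the macrophage percentage, r was -0.44, 0.14 and -0.54, and rho was -0.45, 0.19 and -0.52. None of these passed the permutation tests, whose smallest unadjusted p for r was 0.0905, for TREM2 with neutrophils in CTRL. Without the 2 horses of most extreme percentage, r in that case was 0.45, and in SEA it was 0.11 with neutrophils and -0.26 with macrophages.

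SPP1 and the neutrophil percentage had r = 0.22 in CTRL, -0.33 in MEA and -0.10 in SEA, with rho of 0.31, -0.32 and -0.05. The value in CTRL depended on horses 2 and 5, without which r was 0.94 (n = 5, exact permutation p = 0.0667, 0.722 adjusted). SPP1 and the macrophage percentage had r = -0.74, 0.32 and 0.14, and rho of -0.40, 0.46 and 0.07. The macrophage value in CTRL had an exact permutation p of 0.0409 for r, 0.378 for rho and 0.613 for r after adjustment over the 15 correlations. It rested on 2 horses, since without CTRL horses 2 and 7 r was 0.69. No adjusted p of the 15 was below 0.05. Without SEA horse 1, r in SEA was 0.55 for TREM2 with neutrophils, -0.58 for TREM2 with macrophages, -0.26 for SPP1 with neutrophils and 0.24 for SPP1 with macrophages.

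The levels of both genes were also set against gene lists of cell types and of macrophage states. The lists were drawn from general knowledge, but an array transcript has a symbol here only if the study's tables name it, and 1684 of the 4930 tested transcripts have one. Those were selected for change in these horses, so the counts called in a list are no independent evidence of its direction. Of these 1684, 42.2% were called higher and 44.1% lower in SEA than in CTRL, against 16% and 16.7% of all tested transcripts. In MEA, 7.07% were called higher and 18.1% lower than in CTRL, against 3.25% and 6.53% of all. Each count below is to be read against these shares. The relations within groups were computed after the values were seen, for 4 lists, both genes and 3 groups, 24 in all.

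SPP1 and the mean level of the neutrophil markers were positively correlated in each group, past the adjustment in MEA. For CTRL, MEA and SEA, r was 0.86, 0.83 and 0.72, and rho was 0.86, 0.87 and 0.43. The permutation p in MEA was 0.00368 for r (0.0442 adjusted over the 24) and 0.00201 for rho (0.0482 adjusted). The exact permutation p for r was 0.00873 in CTRL (0.0698 adjusted) and 0.0438 in SEA (0.203 adjusted). MEA horses 3 and 5, which had the highest SPP1 of their group, also had its highest neutrophil marker means, 13.01 and 11.11. The mean of horse 3 exceeded that of every SEA horse, yet by cytology horses 3 and 5 took only places 7 and 8 of 10 in neutrophil percentage within MEA. The marker list and the cytology thus differed in MEA, where SPP1 had r = -0.33 with the counted neutrophil percentage. They differed in SEA too. SEA horses 6 and 2 had the highest marker means of their group, 12.88 and 12.56, but places 8 and 7 in neutrophil percentage. SEA horse 8, at place 1, had a mean of 11.06, while SEA horse 1, with the lowest mean, was at place 6. Without MEA horses 3 and 5, r of SPP1 with the marker list in MEA was 0.43. In SEA the relation rested on horses 1 and 6, without which r was 0.04, and in CTRL r without horses 1 and 2 was 0.81. TREM2 had r of -0.21, -0.48 and -0.42 with the same list, none below an adjusted p of 0.396.

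TREM2 followed the lipid-associated macrophage genes in SEA. Of 25 listed genes, only 8 had a symbol here, all through tables of changed transcripts. These are 8 measured transcripts of genes for proteases, a lectin, a chemokine, a cholesterol transporter and surface proteins that are known from lipid-laden macrophages. TREM2 and SPP1 are not among them. In SEA r was 0.90 (exact permutation p = 0.00357, 0.0442 adjusted over the 24) and rho was 0.83 (exact permutation p = 0.0154, 0.185 adjusted). Without SEA horses 5 and 8 r was 0.77. In MEA r was 0.61 (permutation p = 0.0597, 0.205 adjusted), and in CTRL it was 0.33 (exact permutation p = 0.462, 0.693 adjusted). SPP1 and this list had r of 0.76, -0.08 and 0.25 in CTRL, MEA and SEA, with adjusted p values from 0.203 to 0.868. Whether the lists relate differently to TREM2 and SPP1 was not tested. With the alveolar macrophage markers, r was between -0.17 and 0.41 for both genes, with no adjusted p below 0.581. With the epithelial markers, r was -0.57, -0.56 and -0.72 for TREM2 and -0.12, -0.43 and 0.47 for SPP1, with no adjusted p below 0.203.

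**Figure D4:**
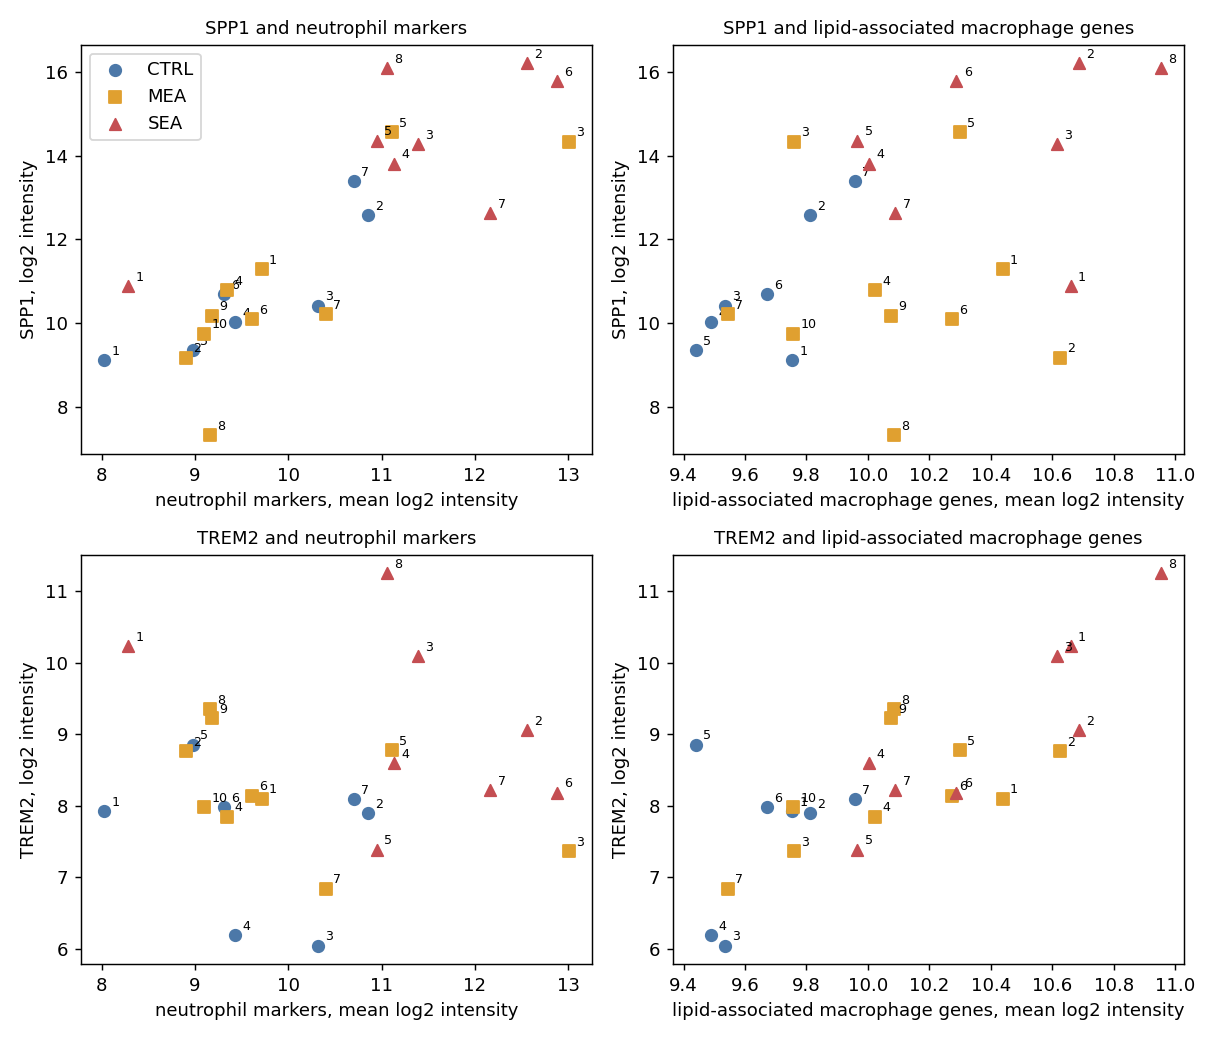
Log2 intensity of SPP1 (top) and TREM2 (bottom) against the mean log2 intensity of neutrophil markers (left) and lipid-associated macrophage genes (right), by horse. In CTRL and MEA, SPP1 tends to be high in horses with high neutrophil markers. Among them are MEA horses 3 and 5, which were at places 7 and 8 of 10 in counted neutrophils within MEA. In SEA the relation rests on horses 1 and 6, without which r is 0.04. TREM2 is high in the SEA horses with high levels of the lipid-associated genes.

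Of 21 listed signaling partners of TREM2, 11 had a symbol here, all from tables of changed transcripts, so that the count called was largely fixed by which transcripts have a symbol. Of 19 transcripts of these 11 genes, 19 were called higher in SEA than in CTRL, with differences between 0.91 and 1.85 and a median of 1.24. The median was -0.01 over all tested transcripts and -0.38 over the 1684 with a symbol. HCST (DAP10), an adaptor that pairs with TYROBP in TREM2 signaling, was higher by 1.78 and PLCG2, a phospholipase downstream of SYK, by 1.23. BTK, a kinase of the same cascade, was higher by 1.38, VAV3, a guanine exchange factor, by 1.85, and PTPN6, a phosphatase that dampens such signals, by 1.01. Many of these proteins also act in neutrophils and lymphocytes. In MEA, 5 of the 19 were called higher than in CTRL, namely 3 of 4 ITPR1 transcripts (calcium channel of the endoplasmic reticulum), 1 of 3 of DOCK2 and VAV3. The median of the 19 was 0.65, against 0.03 over all tested transcripts and -0.09 over those with a symbol. None was called between SEA and MEA, with 0 to 8 over the alternatives, the 8 without MEA horse 3. All 19 were also called against CTRL without SEA horse 1. TYROBP and SYK are not among the transcripts with a symbol here.

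Of the TREM family, TREM1, the proinflammatory receptor of neutrophils and monocytes beside TREM2 on the chromosome, was read by 2 probes. They were higher in SEA than in CTRL by 3.60 and 3.50 (limma adjusted p = 0.0117 and 0.0120). In MEA the differences were 0.79 and 0.61 and were not called. TREML2 did not pass the intensity filter. NFYA, a transcription factor gene 3 places from TREM2, was higher in SEA than in CTRL by 1.56 (limma adjusted p = 0.00497) and than in MEA by 1.15 (adjusted p = 0.0709). CLU (clusterin), an apolipoprotein that TREM2 binds, differed from CTRL by -2.07 in SEA and -1.68 in MEA and was called underexpressed in both.

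Few genes around osteopontin could be named, 3 of 10 listed receptors and 3 of 10 listed proteases and inhibitors, all through tables of changed transcripts. The receptors CD44 and the integrin subunit ITGA4 were higher than in CTRL by 1.41 and 1.39, both called, and ITGA9 did not pass the filter. MMP9, a protease that cuts osteopontin, was higher by 1.88 and TIMP1, a protease inhibitor, by 1.32, both called. PLAUR, listed with the proteases but a receptor that holds urokinase at the cell surface, was higher by 2.41 and called. None of these 5 was called in MEA. Of the macrophage growth factors and receptors, CSF1, the factor that sustains macrophages, was higher in SEA by 2.40, and CSF2RB, the shared chain of the GM-CSF receptor, by 1.47 and 1.24 on its 2 probes. All 3 were called in SEA, but 1 of 3 with normexp background correction, and none in MEA.

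Of the 8 lipid-associated transcripts, 5 were called higher in SEA than in CTRL and 1 lower, with a median of 0.89. The chemokine CCL18 was higher by 1.46, CD84, a receptor of the SLAM family, by 0.92, the metalloproteinase MMP19 by 0.91, the lectin LGALS3 by 0.86 and progranulin (GRN) by 0.77. The tetraspanin CD9 was lower by 0.98 on the log2 scale, while the protease CTSK (1.205, adjusted p = 0.102) and the cholesterol transporter ABCG1 (0.80, adjusted p = 0.236) were not called. In MEA, CD84 (0.99) and MMP19 (0.998) were called higher.

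The lists of cell type markers differed in how many members were called against CTRL, and none of their members was called between SEA and MEA. Over the alternatives, 0 to 6 neutrophil and 0 to 2 lymphocyte markers were called higher in SEA than in MEA. In the other direction, 0 to 2 alveolar macrophage and 0 to 1 epithelial markers were called lower. Of 10 alveolar macrophage marker transcripts, 5 were called higher in SEA than in CTRL, 1 lower and 4 not called, with a median of 0.66. The macrophage lysosomal protein CD68 was higher by 0.84, EMR1 by 1.56, ITGAX by 1.38 and 1.55 and the transcription factor MAF by 1.13, while CD74, the invariant chain of antigen presentation, was lower by 0.66 on the log2 scale. Several of these, ITGAX among them, are also expressed by neutrophils. The scavenger receptor MARCO differed by -1.12 and VSIG4 by -0.54, with adjusted p values of 0.162 and 0.578. The mean level of the list, with STAB1 included although it did not pass the filter, ran from 7.90 to 9.13 in CTRL, 8.82 to 9.55 in MEA and 8.996 to 9.77 in SEA. In MEA, both SIGLEC1 transcripts were called higher (0.83 and 1.14) and CD74 lower.

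Of 10 neutrophil marker transcripts, both of TREM1 included, 8 were called higher in SEA and 1, LTF, lower, with a median of 1.68. CSF3R, the receptor for G-CSF, was higher by 2.53 and G0S2 by 2.51. The number called higher was 9 when SEA horse 1 was left out and ran from 5 to 9 over the alternatives, with 5 without CTRL horse 1, 4 or 6 or SEA horse 2. The list's mean ran from 8.02 to 10.85 in CTRL, 8.91 to 13.01 in MEA and 8.29 to 12.88 in SEA. In MEA only LTF was called, and it was lower. Of 11 epithelial marker transcripts, 10 were called lower in SEA and 6 in MEA, and the mean ran from 8.17 to 9.80 in CTRL, 6.64 to 9.30 in MEA and 4.32 to 8.51 in SEA. By the study's cytology, the mean percentage of exfoliated epithelial cells was not lower in MEA or SEA than in CTRL. Of 6 lymphocyte marker transcripts 3 were called higher and 1 lower in SEA, and the fibroblast marker THY1 was not called. None of the 6 listed mast cell markers had a symbol here. The part of these cell markers in the levels of TREM2 and SPP1 was not tested.

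**Figure D5:**
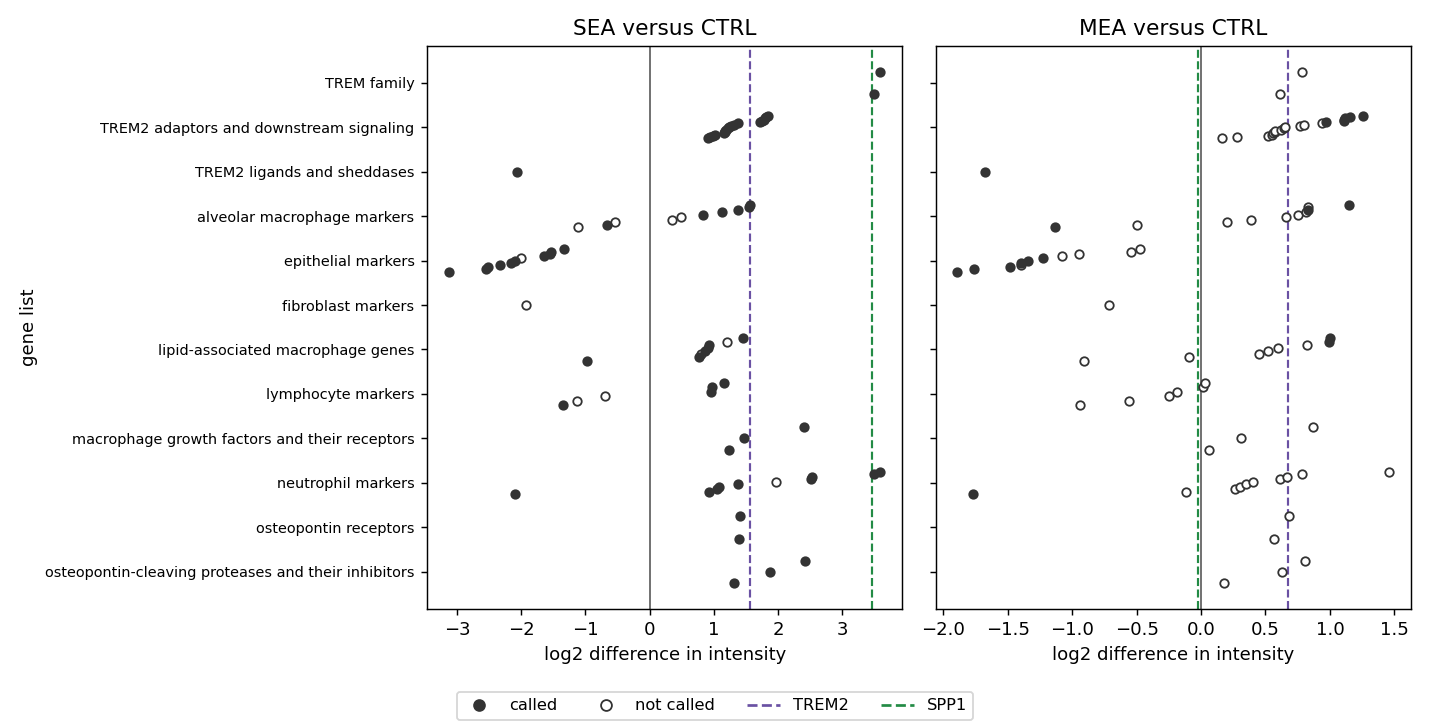
Log2 difference in intensity (x axis) of each tested transcript of 12 gene lists (y axis) between SEA and CTRL (left) and MEA and CTRL (right), with filled points called. Dashed lines mark TREM2 and SPP1. All transcripts shown have a symbol from tables of changed transcripts. The 19 TREM2 signaling transcripts lie right of 0 in SEA, and both TREM1 transcripts lie beside SPP1.

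The transcripts whose levels were most like TREM2 over the 25 horses were PEA15, MDFIC, ARHGAP31, FN1 and CTSK, with Pearson correlations from 0.76 to 0.78. FN1 encodes fibronectin, an adhesive matrix protein, and CTSK the lysosomal protease cathepsin K. The transcripts most like SPP1 were TG, CHN1, CRLF2, INHBA and NR4A3, with correlations from 0.90 to 0.91. INHBA encodes the activin A subunit, and NR4A3 is an early response nuclear receptor. These correlations are over horses of 3 groups that share differences in cell makeup. INHBA was higher in SEA than in CTRL by 3.85 (adjusted p = 0.00721) and TG by 3.62 (adjusted p = 0.0212). In this order SPP1 took place 1264 for TREM2, and TREM2 took place 1365 for SPP1.

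With the group means subtracted, the likeness of SPP1 to TG (0.89) and NR4A3 (0.87) held, and ENSECAT00000008850 (0.89), a further TG transcript (0.86) and SH3BP5 (0.86) joined them. The 5 transcripts most like TREM2 had no symbol. They were ENSECAT00000023553 (0.79), ENSECAT00000010453 (0.76), ENSECAT00000014793 (0.76), ENSECAT00000000014 (0.75) and ENSECAT00000007212 (0.75), and none of them was called in SEA or MEA. These values describe the 25 horses and carry no test.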

How the data were processed

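BAL cell RNA of 25 horses was measured on one-color arrays with 2 spots for each of 7238 transcripts. For each array the authors deposited scanner intensities (Feature Extraction 9.5.1.1 per the file headers), background-corrected and not normalized between arrays, and a table of intensities normalized with R 2.11.1, per the submitters' processing notes. Here the log2 scanner intensities were normalized by cyclic loess (span 0.7, 3 iterations), spots of a probe were averaged without outlier spots, and transcripts below 4.5 in at least 19 arrays were left out, which left 4930. Comparisons used limma 3.58.1 (R 4.3.3) on the arrays of both groups, adjusted over all tested transcripts by Benjamini-Hochberg. Correlations used two-sided permutation tests, exact for CTRL and SEA and with 100000 resamples for MEA (numpy 2.4.6, Python 3.11.15). Sex and cell percentages came from the study's cytology table. Arrays have no sequencing depth, and their number limits the precision. The correlation test was tried on simulated data. TREM2, SPP1, the gene lists and the tests were chosen with earlier results of these data known. The named genes were both members, the 5 transcripts most like each, and the members of the lists. Symbols came from the study's tables, which name 1865 transcripts. The fold changes in those tables were not used. Alternatives were other normalizations, background corrections, filters, tests and blocks, and each horse left out. Horses are separate animals. No coordinates are given, since no genome of the array's annotation was used.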

Additional observations from a re-analysis of the deposited data

Results flagged for a closer look

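A total of 6 results stood out. SPP1 was higher in SEA than in MEA by 3.48 on the log2 scale (limma adjusted p = 0.0843), which is also the difference between both effects against the shared controls. The call did not hold with the slide block (adjusted p = 0.270), the rank sum test (0.139), 75th percentile scaling (0.138) or normexp (0.145). It was also lost with the replicate block, which left out MEA horses 9 and 10 (0.292), and in 13 of 18 fits that left out 1 horse. The other 5 were single horses far from their group in the mean level of a gene list, among 42 groups examined for both members and 12 lists, where chance gives about 1 in 20. SEA horse 1 had a mean of 8.29 for the neutrophil markers, with the nearest SEA horse at 10.95. For the 3 TREM family transcripts, with TREML2 included although it did not pass the intensity filter, its mean was 8.42, with the nearest at 10.77. Both lists hold TREM1. MEA horse 3 had 10.56 for the TREM2 signaling genes, with the nearest MEA horse at 9.50, and 15.14 for the osteopontin-cleaving proteases and inhibitors, with the nearest at 13.11. It was 1 of the 2 MEA horses with high SPP1. CTRL horse 1 had 7.90 for the alveolar macrophage markers, with the nearest CTRL horse at 8.62. No level of TREM2 or SPP1 itself stood apart by this measure.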

How the results depend on the processing

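SPP1 between SEA and CTRL was called in all 26 alternatives, with differences from 3.20 to 3.61 across settings and from 3.18 to 3.94 without 1 horse. TREM2 between SEA and CTRL ran from 1.13 to 1.76 across settings and from 1.25 to 1.81 without 1 horse. With the replicate block it was not called (1.25, adjusted p = 0.155), nor without CTRL horse 3 or CTRL horse 4. The block kept only horses whose number occurs in both groups. It thus left out SEA horse 8 against CTRL, MEA horses 8 to 10 against CTRL and MEA horses 9 and 10 against SEA. Leaving out SEA horse 8 without a block gave the same TREM2 difference of 1.25, which was called (limma adjusted p = 0.0853). Same-numbered horses of SEA and CTRL deviated together in 3 of 7 pairs (r over 0.1), so that the numbers were not taken to pair horses. The block fit changed no call but that of TREM2 between SEA and CTRL and that of SPP1 between SEA and MEA (3.28, adjusted p = 0.292). The latter was also lost with 75th percentile scaling (3.55), normexp correction (3.34), the rank sum test (3.48) and the slide block (3.06), and it ran from 3.10 to 3.97 without 1 horse. SPP1 between MEA and CTRL was never called. It changed sign with 75th percentile scaling (0.057), normexp (0.21) and the replicate block (0.70), and from -0.45 to 0.41 without 1 horse. The replicate block left out MEA horses 8 to 10, and without MEA horse 8 alone the difference was 0.36, so its sign change cannot be credited to the block. TREM2 was not called in these comparisons in any alternative. It differed by 0.26 (normexp) to 0.74 between MEA and CTRL and 0.86 to 1.30 between SEA and MEA across settings, and by 0.42 to 0.88 and 0.58 to 1.14 without 1 horse. Correlations that changed sign were TREM2 with SPP1 in CTRL (-0.48) and SPP1 with neutrophils (0.10, SEA) and macrophages (0.69, CTRL) without the 2 farthest horses, and TREM2 with SPP1 in SEA (-0.025) and with neutrophils in MEA (-0.17) under normexp. Leaving SEA horse 1 out was added after the data were seen. The cause of these changes was not tested. Signaling partners called higher in SEA numbered 15 to 19 over the alternatives, and 0 to 9 in MEA. Under normexp, which treats dim signals differently, TREM2 between SEA and CTRL was 1.13.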
